A study of Danio rerio with 16 samples.

Results

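The 200 genes described here were abundant in every testis of the study and close to absent from every ovary. They were chosen by a rule on the deposited normalized counts, in which each gene's reads are divided by a size factor for the depth of its library. Of 28353 genes in that file, 4306 had 200 or more in every one of the 8 males. These were ranked by log2((mean of 8 males + 1)/(mean of 8 females + 1)), and after leaving out 9 named genes of Sertoli cells, Leydig cells and others (amh, gsdf, insl3, inha, ctsh, cyp11a1, cyp17a1, eps8l1a and aif1l) the first 200 were taken, 4.64% of the abundant genes. Of the left-out genes, 4 had passed the minimum. Since the members were selected on the difference between the sexes, their male and female levels are given as a description with no test.

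The gonads came from adult zebrafish of the AB strain, 4 months old by the labels, kept for 32 days in water with exemestane (EM), a steroidal inhibitor of aromatase, the enzyme that makes estrogens from androgens. Males and females were exposed to 0, 50, 100 or 200 μg/L EM, with 2 fish for each sex and concentration, and each library is the gonad of 1 fish. EM was dissolved in dimethyl sulfoxide (DMSO). The labels call the unexposed fish control, and they are read here as solvent controls. Each concentration had 1 tank of 3 males and 3 females, so tank and concentration cannot be told apart. Exposed fish are called EM-males and EM-females, and EM50, EM100 and EM200 give their concentration.

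A sperm is built in the testis from a germ cell that goes through meiosis and then, as a spermatid, condenses its nucleus and grows a flagellum. The core of the flagellum is the axoneme, a ring of doublet microtubules around a central pair. Dynein arms on the doublets are the motors, the nexin-dynein regulatory complex and the radial spokes regulate them, and tektins and other inner proteins stiffen the doublets. The ovary makes no such cell, and genes for these parts are well known for their high level in testis.

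The males had from 4043394 to 9674058 reads counted on genes and the females from 8311132 to 13821205. Control male 1 had the fewest reads of all libraries, and EM50 male 2, with 4180861, was close to it. In other respects control male 1 stood apart. Reads on 23 genes of pancreatic enzymes and hormones made up 2.38% of its counts, against 0.0432% to 0.866% in the other males and at most 0.00397% in the females. As summed normalized counts, markers of Sertoli cells were from 5187 to 15272 in males against 34.0 to 136 in females, and oocyte markers from 2462 to 5653 against 93432 to 120733, so that the sexes matched their labels. The summed immune markers, 7 genes, ranged from 1579 to 21123 in males. In bulk tissue, fewer cells of a type and less RNA per cell cannot be told apart.

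Of the members, 192 had a symbol, 55 of these only a clone or number name, and 8 had none. Because 13 symbols also belong to another Ensembl identifier, identifiers are given for those named below. Gene lists fixed with earlier results of these data known held 66 members. The share of a list's abundant genes that were members was 60% for radial spokes and the central pair (12 of 20), 32.1% for dynein arms with their regulatory complex and assembly factors (9 of 28) and 30% for tektins and microtubule inner proteins (6 of 20). It was 26.3% for meiosis (5 of 19) and 23.3% for genes with spermatid or sperm names (17 of 73). Kinesins and tubulins had 6% (3 of 50), kinases and phosphatases 4.88% (4 of 82) and the energy list 4.35% (4 of 92). Chromatin and histones had 1.67% (1 of 60) and the ubiquitin and proteasome list 1.36% (2 of 147). These shares lay near or below the 4.64% of all abundant genes, so members named from them are described only as single genes. None of the 19 abundant genes of intraflagellar transport, which carries parts along cilia, were members. The same held for 13 in the piRNA pathway, which silences transposons in germ cells. The share over all abundant genes was 4.64%, so lists this short can hold none, and no conclusion is drawn from them. Together with 16 more axonemal genes listed after the members were seen, 43 members belonged to the flagellum or cilium.

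Log2 ratios of male to female mean ran from 7.25 to 12.09, with a median of 8.48. The plot of male against female means shows the members at its left edge, with the other abundant genes reaching them without a gap. Just inside the end of the list were ENSDARG00000117346 (7.27), myhb (7.27) and spag17 (7.25). Just outside were iqcg (7.24), si:ch211-286b4.4 (7.22) and si:ch211-117c9.5 (7.22). At the minimum, si:ch211-209f23.3 entered with 202 normalized counts in its lowest male and myo7bb failed with 199.6. A further 323 genes had a ratio above that of the last member but a male under 200. For each of the 200 members the lowest male was above the highest female, which the rule favours.

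**Figure D1:**
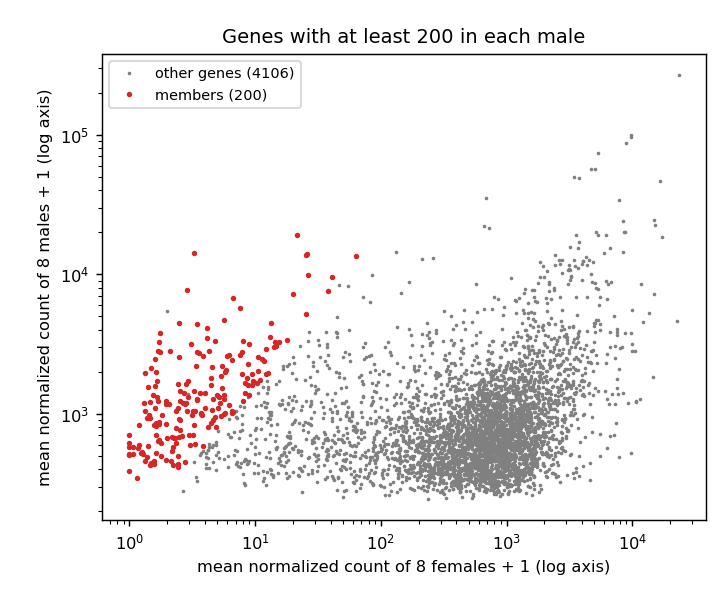
Mean normalized count of the 8 females (x) against that of the 8 males (y), each plus 1 and on log axes, for the 4306 genes with at least 200 in each male. Red points are the 200 members, whose log2 ratios run from 7.25 to 12.09, and grey points are the 4106 other genes.

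The highest ratio, 12.09, belonged to tuba7l, an alpha-tubulin of the microtubule wall. Its normalized counts were 11534 and 18770 in the control males, 10896 and 11712 in the EM50 males, 19740 and 13078 in the EM100 males and 18800 and 8528 in the EM200 males. No female passed 4.95. SAXO2, a stabilizer of axonemal microtubules, came second, with 2762 and 4435 in the control males, 15644 and 12742 in the EM50 males, 6344 and 8442 in the EM100 males and 6746 and 4893 in the EM200 males. Both males at 50 μg/L were far above the other males for this gene, and both controls were below all EM-males. The third gene, ccdc83, stayed between 2471 and 5412 over the 8 males, and no female had more than 3 reads of it. Its mean in males was at least 1846-fold higher than the floor of 3 reads in females. DNALI1, an inner-arm dynein light chain, RAB36, a small GTPase, and FANK1, known from mouse spermatogenesis, followed with log2 ratios of 10.83, 10.70 and 10.62. The others of the first 15 were si:ch211-242f23.3, si:dkeyp-50b9.1, si:dkey-40g16.5, si:ch73-111k22.3, ANKAR, the potassium channel gene cngk, which is known from zebrafish sperm, ENSDARG00000116848, DRC1 and SMYD1.

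Among the dynein arm genes, DNAI1 (ENSDARG00000100081), an intermediate chain of the outer arm, had 2144 and 4119 in the control males, 5585 and 3795 in the EM50 males, 5371 and 3844 in the EM100 males and 4578 and 3740 in the EM200 males. Control male 1 was well below the other males. A second DNAI1 identifier, ENSDARG00000038788, was the fourth gene outside the list, with a log2 ratio of 7.22. Reads that fit both would be counted for neither. The heavy chain gene dnah5l had 5596 and 13258 in the control males, 25474 and 5652 in the EM50 males, 19953 and 24688 in the EM100 males and 9533 and 6471 in the EM200 males. It varied more, and neither the controls nor the EM groups kept apart. DRC1 and DRC3 belong to the nexin-dynein regulatory complex. They ranged over the males from 578 to 2447 and from 1069 to 3757. The assembly factor dnaaf19 ranged from 1053, in control male 1, to 3751.

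Radial spokes and the central pair contributed 12 members, and 11 of them were lowest in control male 1. RSPH4A, a protein of the spoke head, had 1663 and 3202 in the control males, 3798 and 2999 in the EM50 males, 3641 and 3904 in the EM100 males and 3849 and 3054 in the EM200 males. Apart from control male 1 its values were close together. CFAP43 ranged from 1733 to 4382, the central pair gene cfap221 from 1059 to 3561, and the adenylate kinase ak7a from 1540 to 5713, each lowest in control male 1. Of the inner proteins of the doublets, TEKT1, a tektin, had 2644 and 4694 in the control males, 4882 and 3532 in the EM50 males, 6436 and 7103 in the EM100 males and 3084 and 5178 in the EM200 males. The values of ribc2 ran from 1233 to 3935 and those of cfap210 from 2872 to 7335. TTLL9, which adds glutamate chains to tubulin, ranged from 535 to 1283, and the kinesin gene kif9 from 714 to 2356. FOXJ1 and foxj1b, which code for the transcription factor that switches on genes of motile cilia and were picked out after the members were seen, ranged from 529 to 1796 and from 233 to 779.9.

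Meiosis was represented by 5 members. SYCP2 is part of the axis of the synaptonemal complex, and sycp2 had 4027 and 5644 in the control males, 11866 and 7669 in the EM50 males, 7530 and 8450 in the EM100 males and 7606 and 5108 in the EM200 males. Neighbouring EM concentrations overlapped, and both EM200 males were below both EM50 males. Control male 1 was again lowest. HORMAD1, which marks unsynapsed chromosome axes, ranged from 1668 to 5526, and EM200 male 2 was lowest. Its summed germ cell markers, 17 genes, were 8897, against 19470 to 31563 in the other males, and their part in its low values was not tested. That fish was also lowest for smc1b, a cohesin subunit of meiosis (1593 to 4940), and for shoc1, needed for crossovers in other species (564 to 1792). The cohesin gene rec8b was lowest in EM50 male 2, at 605, with 1795 in the highest male. Oocytes also go through meiosis. No female passed 34.8 for sycp2 and 6.22 for HORMAD1, but the rule selects for low female values. Only 5 of the 19 abundant meiosis genes were members, so nothing is concluded on meiosis in the ovary.

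Several members act in the spermatid or in sperm. DCST2, dcst1 and spaca6 are sperm membrane proteins that zebrafish need for fertilization, and the trio was grouped after the members were seen. The 8 males ranged from 1660 to 4466 for DCST2, from 596 to 2908 for dcst1 and from 342 to 1796 for spaca6, with control male 1 lowest for all of them. Of the other genes with sperm names, ccdc175 had 1650 and 2345 in the control males, 4159 and 4806 in the EM50 males, 3315 and 2408 in the EM100 males and 1657 and 1487 in the EM200 males, and both males at 50 μg/L were highest. KLHL10 (ENSDARG00000005814), an adaptor of a ubiquitin ligase needed by mouse spermatids, ranged from 369 to 1430, and fbxo36b from 356 to 1493. The energy list held 4 members, 4.35% of its abundant genes. Among them, AK1, an adenylate kinase, had from 3932 to 9008. COX5B (ENSDARG00000068738), a subunit of cytochrome oxidase, had from 916 to 4283, and the sperm enolase gene ENO4 from 463 to 1836.

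The list of kinases and phosphatases held 4 members, or 4.88% of its 82 abundant genes, near the 4.64% over all abundant genes. They were CDKL1 and the pim-related genes pimr183, pimr184 and pimr186. The pim-related genes belong to a large zebrafish family of similar genes, and reads that fit several copies would be counted for none. The normalized counts of pimr183 were 332 and 223 in the control males, 1084 and 1486 in the EM50 males, 384 and 405 in the EM100 males and 384 and 283 in the EM200 males. Both fish at 50 μg/L were above all other males, by more than the spread within any pair. For pimr186 the EM50 males, 2006 and 1698, were again the highest, against 219 to 1041 in the others. The same held for pimr184, at 796 and 919 against 215 to 625. No read of pimr183 was counted in any female.

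Some members are not known for the germ line. Steroid genes were among them. The gene cyp11c1 codes for an enzyme on the route to 11-ketotestosterone, the main androgen of fish. It had 853 and 695 in the control males and 2322 and 634 in the EM50 males. The values were 577 and 669 in the EM100 males and 1990 and 2058 in the EM200 males. STAR, which brings cholesterol into mitochondria, had 2634 and 1464 in the control males, 1915 and 1635 in the EM50 males, 788 and 1550 in the EM100 males and 1857 and 1972 in the EM200 males. EM100 male 1 was lowest for both. COL1A1, a chain of the main fibrous collagen, had 5687 and 3669 in the control males, 13814 and 11495 in the EM50 males, 10036 and 10795 in the EM100 males and 8384 and 15225 in the EM200 males. Both controls were below all EM-males. SPARC, a matrix protein, had 4690 and 996 in the control males, 421 and 774 in the EM50 males, 639.8 and 492 in the EM100 males and 741 and 2083 in the EM200 males, highest in control male 1 and next in EM200 male 2.

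The genes cd74a, cd74b and b2m act in antigen presentation, as chaperones of class II molecules and as the light chain of class I molecules. For cd74a the values were 8163 and 3695 in the control males, 886 and 4284 in the EM50 males, 664 and 1159 in the EM100 males and 1181 and 8286 in the EM200 males. Control male 1 and EM200 male 2 were about equal and well above the rest. They were also the highest pair for cd74b, at 5281 and 3546, and for b2m, at 18740 and 19634. The lowest male was EM50 male 1 for cd74b and b2m (308 and 2097) and EM100 male 1 for cd74a.

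Digestive enzymes of the pancreas also met the rule, since it compares the gonads of the sexes and not organs. The trypsin gene prss1 had 53876 and 3263 in the control males, 547 and 18572 in the EM50 males, 735 and 719 in the EM100 males and 9644 and 20740 in the EM200 males. Control male 1 was highest, followed by EM200 male 2 and EM50 male 2, and EM50 male 1 and both EM100 males were lowest. The elastase gene CELA1 (ENSDARG00000017314) had 64180 and 2138 in the control males, 279.7 and 16013 in the EM50 males, 960.2 and 773 in the EM100 males and 6855 and 20516 in the EM200 males, a range of 229-fold. The order of the 8 fish was that of prss1. A further trypsin-like gene, prss59.1, ranged from 363 to 26187, highest in control male 1. These genes go against the name testis-restricted. The labels call each library gonad, and whether tissue of other organs was taken along is not given in the sources used here. The summed liver markers, 21 genes, were also uneven, at 34664 in EM200 male 2, 32868 in EM50 male 2 and 26703 in control male 1, against 1055 to 10307 in the other males.

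**Figure D2:**
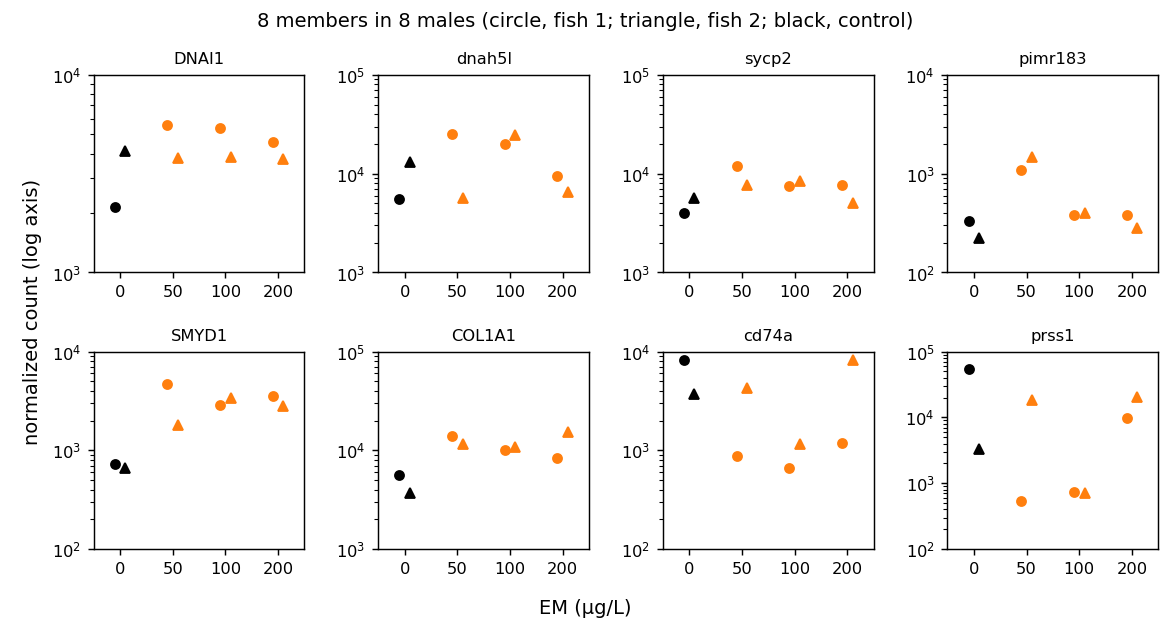
Normalized counts (y, log axis) of 8 members in each male against the EM concentration in μg/L (x), with circles for fish 1, triangles for fish 2 and black for the controls. prss1 was high in control male 1, EM200 male 2 and EM50 male 2. cd74a was highest in control male 1 and EM200 male 2, with EM50 male 2 and control male 2 next. pimr183 was high in both males at 50 μg/L, and SMYD1 and COL1A1 were lower in both controls than in the 6 EM-males.

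Roles were not assigned to 54 further members with a gene name, 55 with a clone or number name and 8 without a symbol. Control male 1 was lowest for 25 of the 54 and for 30 of the 55, and EM100 male 1 was highest for 20 and 18. The heat shock factor gene hsf5, which zebrafish males need for meiosis, had 1553 and 4587 in the control males, 2887 and 3423 in the EM50 males, 6004 and 3552 in the EM100 males and 2704 and 1828 in the EM200 males. Its lowest males were control male 1 and EM200 male 2. PKLR, the pyruvate kinase of liver and red cells, and BIN2, a membrane-bending protein of blood cells, were instead highest in those fish. For PKLR the values were 5920 and 1025 in the control males, 2333 and 4304 in the EM50 males, 1173 and 3714 in the EM100 males and 2327 and 5246 in the EM200 males, and for BIN2 they ran from 434 to 6249. These genes were picked out after their values were seen. PKLR was highest in control male 1, EM200 male 2, EM50 male 2 and EM100 male 2. The summed liver markers were also highest in those fish, from 10307 to 34664, against 1055 to 7730 in the others. A link between the liver markers and PKLR was not tested. The 6 blood markers did not go with PKLR and BIN2 as a set. EM200 male 2 was the lowest male for cahz, at 209, and the highest for epb41b, at 428. Control male 1 had the highest summed blood markers, 1813. It was the highest male for cahz, at 762, and hbaa1, at 500, but not for epb41b, at 390, or hbaa2, at 98.9.

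In the ovaries the members were near the limit of counting. A value of at most 3 reads in a library was taken as the floor, and 49 members were at the floor in all 8 females. No read at all was counted for 6 of these, among them ccdc166 and pimr183. At the other end, 30 members had more than 3 reads in all 8 females, 59 had more than 10 normalized counts in at least 1 female, and 0 passed 100. The highest female values were 85.3 for prss1, 85.2 for CELA1 and 78.1 for RSPH4A. Reads on the members made up from 0.00985% to 0.0144% of the counts of the females and from 3.72% to 6.78% of those of the males. Between 73 and 105 members were over 3 reads in a given female. For the 49 members at the floor the mean of the males was at least 167-fold to 1846-fold higher, and for the other 151 the fold ran from 169 to 6288.

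The members differed more from male to male than other abundant genes did. The rule ranked them on the mean of the same males, which can favour a gene with 1 very high male. No conclusion is drawn from the comparison for that reason. Their coefficient of variation (CV, the SD over the mean of the 8 males) had a median of 0.419 and ran from 0.171 to 1.73, against a median of 0.288 for the 4106 other genes. The highest male was a median of 3.72 times the lowest, against 2.36 times. FMNL1, an actin-nucleating formin, had the lowest CV, with 324 and 432 in the control males, 446 and 473 in the EM50 males, 450.2 and 374 in the EM100 males and 300.0 and 489.9 in the EM200 males. Also among the lowest were si:ch211-209a2.2, rhoab, RSPH4A and AK1, with CVs of 0.197 to 0.229. A CV above 1 was found for 8 members. The highest was 1.73 for ros1, a receptor tyrosine kinase, which had 2909 and 823 in the control males, 866 and 1595 in the EM50 males, 520.2 and 914 in the EM100 males and 1146 and 16671 in the EM200 males. Its value rested on EM200 male 2. The same fish was highest for myhb, a myosin heavy chain, with 4090 against 319 to 943 in the other males. The digestive enzyme genes prss1, prss59.1 and CELA1 had CVs of 1.35, 1.54 and 1.55.

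Much of this variation was shared by many members. Control male 1 was the lowest male for 106 of the 200, or 53%, and for 18.9% of the other abundant genes. Its median log2 deviation from the mean of the 8 males was -0.89 over the members and -0.07 over the other genes. EM100 male 1 was the highest male for 74, or 37%, and for 21.3% of the others, with medians of 0.40 and 0.06. EM200 male 2 was the lowest male for 32, or 16%, and for 24.7% of the others, with medians of -0.46 and -0.16. In the remaining males the members' medians lay between -0.20 and 0.23. The share of counts on members was lowest in control male 1 (3.72%) and EM200 male 2 (3.77%) and highest in EM100 male 1 (6.78%). Without the digestive enzyme genes it was 2.39% in control male 1, 3.30% in EM200 male 2 and 4.13% to 6.75% in the others.

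The role groups described here differed in which males were high or low. The digestive enzyme and antigen presentation groups, of 3 genes each, were put together after the members were seen. Of the 43 flagellar members, 32 were lowest in control male 1, 21 were highest in EM100 male 1 and 10 in EM100 male 2. Their median log2 deviation was -1.03 in control male 1, 0.48 in EM100 male 1, 0.32 in EM100 male 2 and -0.49 in EM200 male 2. The digestive enzyme genes had a median of 2.196 in control male 1, 0.55 in EM200 male 2, and -3.86 and -4.17 in the EM100 males. In EM50 male 1 and control male 2 they were also low, at -4.63 and -2.71, while the flagellar medians of these fish were 0.07 and 0.10. EM50 male 2 had a digestive median of 0.28, above most males, and a flagellar median of 0.03. For EM200 male 1 the digestive median was -0.95 and the flagellar median -0.25. Antigen presentation genes had medians of 1.21 and 1.04 in control male 1 and EM200 male 2, of -2.41 and -1.61 in the EM100 males, and of -2.19 in EM50 male 1. The share of counts on pancreatic genes was 2.38% in control male 1, 0.866% in EM200 male 2, 0.744% in EM50 male 2 and 0.441% in EM200 male 1, and at most 0.144% in the others. The part of this share, and of the low depth of control male 1, in the low flagellar values was not tested.

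**Figure D3:**
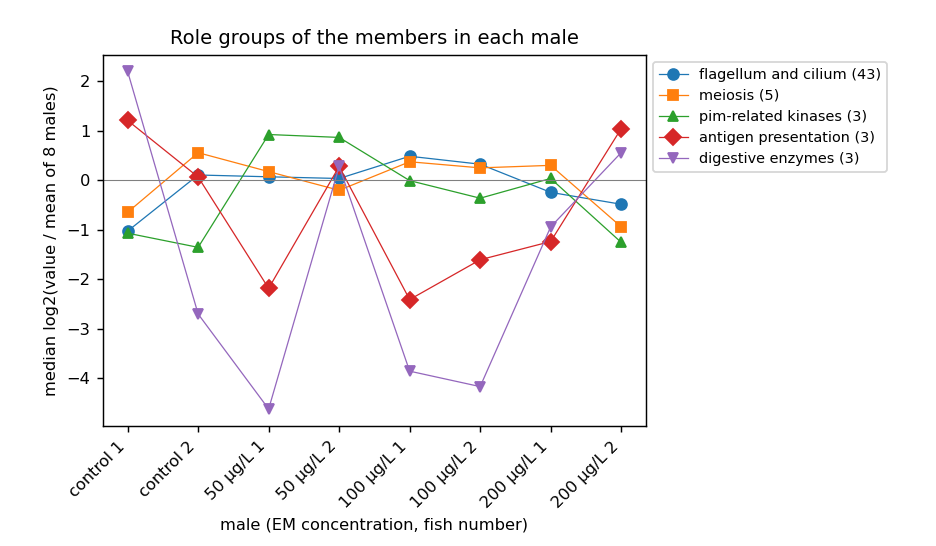
Median log2 of the normalized count over the mean of the 8 males (y) for 5 groups of members in each male (x). The number of genes is in the legend, and lines are only to guide the eye. The digestive enzyme, antigen presentation and pim-related groups were put together after the members were seen. The flagellar genes run from -1.03 in control male 1 to 0.48 in EM100 male 1, while the digestive enzyme genes run from 2.196 in control male 1 to -4.63 in EM50 male 1.

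The first comparison asked whether the members changed in testis under EM, with 6 EM-males against 2 control males. The rule set 1 minimum for all males and did not use this contrast, but 6 of the 8 males in its mean were EM-males. That mean can favour genes higher in EM-males, and its part in the shares below was not tested. All genes tested here include many that did not reach 200 in each male. No member passed an adjusted p of 0.05 in edgeR's quasi-likelihood test over 19417 genes, the lowest being 0.551, and 0.00515% of all genes tested, a single gene, passed. At an unadjusted p under 0.05, 25 members (12.5%) were higher in EM-males, against 3.89% of all genes, and 1 (0.5%) was lower, against 2.23%. All 6 EM-males were above both controls for 31 members (15.5%), against 5.4% of all genes, and below both for 1 (0.5%), against 2.9%. DESeq2 called 2 of 198 members (1.01%) and 0.504% of all genes with an adjusted p. The median log2 change of the members was 0.38, against 0.02 over all genes, and it was positive for 151 of them (75.5%), against 51.1%.

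Counting both directions, 26 members had an unadjusted p under 0.05 in edgeR with all fish, against 6.12% of all genes. Without EM200 male 2 it was 50 members, against 10.2% of all genes. The shift of the members' median rested on control male 1. Without control male 1 the median log2 change of the members was 0.094, with 109 positive, against 0.16 over all genes, and without control male 2 it was 1.02. An alternative left out the 3 males with the most pancreatic reads (control male 1, EM50 male 2 and EM200 male 2). It was added after the data were seen, and the members' median was 0.11, against 0.06 over all genes. That fit kept control male 2 as the only control, so pancreatic reads and control male 1 cannot be told apart in it. The 43 flagellar members had a median of 0.45 and were positive in 39 cases, but -0.08 and 20 cases without control male 1. Taken one concentration at a time against both controls, the members' median was 0.26 for EM50, 0.68 for EM100 and 0.02 for EM200 males. Those comparisons share the control fish.

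**Figure D4:**
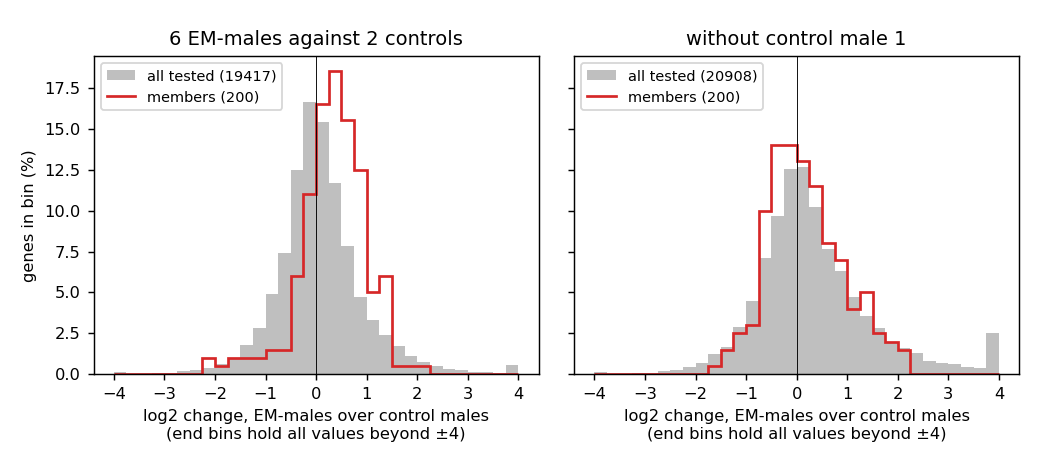
Percent of genes (y) by log2 change of EM-males over control males (x) for all genes tested (grey) and the 200 members (red line), with both controls (left) and without control male 1 (right). The median of the members is 0.38 on the left, against 0.02 for all genes, and 0.094 on the right, against 0.16.

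The member with the smallest p was SMYD1 (ENSDARG00000009280), a lysine methyltransferase known for its part in muscle. It had 727 and 659 in the control males, 4693 and 1789 in the EM50 males, 2846 and 3363 in the EM100 males and 3513 and 2839 in the EM200 males. Every EM-male was above both controls, and the groups did not overlap. The log2 change was 2.18 (SE 0.42) with an edgeR adjusted p of 0.551, and DESeq2 gave an adjusted p of 0.00107. It stayed between 2.04 and 2.31 when any 1 of the 8 males was left out. SMYD1 is named because its p was the smallest of the 200.

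Next came si:ch211-198k9.6, with 463 and 286 in the control males, 1994 and 1406 in the EM50 males, 912 and 1229 in the EM100 males and 1966 and 941 in the EM200 males. Its log2 change was 1.90 (SE 0.44), with an adjusted p of 0.631 by edgeR and 0.0166 by DESeq2. For si:ch73-223f5.2 the log2 change was 1.45 (SE 0.37, edgeR adjusted p = 0.682), with the controls at 1104 and 1284 and the EM-males from 2277 to 4540. These clones have no role given here. COL1A1, named above and picked for its values, had a log2 change of 1.301 (SE 0.36) with an adjusted p of 0.696 by edgeR and 0.0599 by DESeq2.

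In the other direction the smallest p values were those of SPARC, si:ch211-184m19.3 and ifi27.2, an interferon-induced gene. SPARC had a log2 change of -1.73 (SE 0.64, edgeR adjusted p = 0.767). Its control values, 4690 and 996, lay far apart, and the change ranged from -2.44 to -0.25 when 1 male was left out, the latter without control male 1. For si:ch211-184m19.3 the change was -1.31 (SE 0.60, edgeR adjusted p = 0.819), and it was 0.038 without control male 1. The change of ifi27.2 was -1.13 (SE 0.61, edgeR adjusted p = 0.854), with EM-males from 304 to 1913 and controls at 1954 and 2329. The digestive and antigen presentation genes had medians of -2.13 and -1.14, and none of these 6 genes reached an unadjusted p under 0.05.

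A trend with concentration was then tested among the 6 EM-males alone, as the log2 change per doubling of EM. None of the members and 0% of 17541 genes passed in edgeR, and DESeq2 called 0 members and 0.337% of all genes. At an unadjusted p under 0.05, 2 members (1%) were higher with concentration, against 2.37% of all genes, and 9 (4.5%) were lower, against 2.01%. These counts changed with the fish left out. The median change of the members was -0.11, against 0.02 over all genes. With 1 fish left out it ran from -0.24, without EM50 male 2, to -0.03, without EM200 male 2. Over all genes these 2 fits gave -0.008 and -0.02. The change was positive for 63 members (31.5%), against 52.2% of all genes, and for 5 of the 43 flagellar members. Without EM200 male 2, 88 members were positive. The lowest p belonged to pimr183, with -0.96 per doubling (SE 0.21), then ccdc175 with -0.74 (SE 0.17) and SAXO2 with -0.63 (SE 0.19), all with an edgeR adjusted p of 0.906. In each of these both EM50 males were the highest of the EM-males. In the other direction stood ENSDARG00000010729 with 1.32 (SE 0.42), ros1 with 1.45 (SE 0.60) and SPARC with 0.64 (SE 0.28), each with the same adjusted p. Among EM-males, all of these were highest in EM200 male 2, and without that fish the values were 0.34 for ENSDARG00000010729, -0.13 for ros1 and 0.13 for SPARC.

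The third comparison asked whether members rose in ovaries of EM-females, with 6 EM-females against 2 control females. Only 59 members had enough reads to be tested. None passed in edgeR, where 0.0126% of 15907 genes did, and DESeq2 called 0 of 42 members and 2.62% of all genes. At an unadjusted p under 0.05, 0 of the tested members were higher, against 6.78% of all genes, and 3 (5.08%) were lower, against 4.96%. The lower genes were RSPH4A, cfap210 and si:ch211-198k9.6. RSPH4A had a log2 change of -3.21 (SE 0.89, edgeR adjusted p = 0.259), with 78.1 and 3.4 in the control females, 5.29 and 3.09 in the EM50 females, 4.79 and 2.49 in the EM100 females and 9.48 and 1.33 in the EM200 females. Control female 1 alone was high, and without it the change was 0.33. For cfap210 the change was -0.99 (SE 0.43, edgeR adjusted p = 0.418), with 35.9 and 40.8 in the control females, 26.4 and 23.5 in the EM50 females, 16.2 and 28 in the EM100 females and 11.8 and 12 in the EM200 females. For si:ch211-198k9.6 it was -1.35 (SE 0.59, edgeR adjusted p = 0.425), with no female above 10.4. Among positive changes the smallest p values were those of cd74a, at 0.98 (SE 0.54, edgeR adjusted p = 0.524), TTLL9, at 1.36 (SE 0.77, edgeR adjusted p = 0.536), and DRC3, at 1.24 (SE 0.78, edgeR adjusted p = 0.579). The other 141 members had too few reads in females to pass the filter of this test. With no filter, edgeR tested 194 members, and 4 were higher and 2 lower at an unadjusted p under 0.05. In either direction that was 6 members, against 8.73% of all genes. The members had low counts in ovary, none above 100 normalized counts, while all genes tested include more abundant ones.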

How the data were processed

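Gonads of 16 adult zebrafish were measured by stranded, polyA-selected RNA-seq, with 2 fish for each of 8 groups of sex and EM concentration. The authors mapped reads with HISAT2 2.0.5 (GRCz11, per the submitters' processing notes), removed duplicates with SAMtools 1.5 and counted with HTSeq 0.9.1. The deposited count file holds whole reads of 32520 genes, and 5 tallies of HTSeq were left out. Reads tallied as not unique were 24.8% to 36.7% of a library and are in no gene. The deposited normalized signal holds 28353 genes, each count divided by a DESeq2 size factor. With 1 factor per library, taken from these same values, the largest difference of a normalized value from count over factor was 5.39e-08%. This shows a constant divisor within each library and not how the divisor was obtained.

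Members were ranked on the normalized values, and tests were run on the counts with edgeR 4.0.16 in R 4.3.3 (TMM, filterByExpr, robust quasi-likelihood F-test, two-sided) on the fish of each comparison, with Benjamini-Hochberg adjustment over all genes tested and a threshold of 0.05. Male against female values got no test. With 6 fish against 2, p-values measure the spread between single fish. Both controls of a sex came from 1 tank, so no spread between tanks of a concentration is measured. Alternatives were DESeq2 1.42.0, its size factors within edgeR, no filter, a fit of all 16 libraries, a block for replicate number, each concentration alone, and leaving out single fish. The edgeR steps were tested on simulated data.

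The members and lists were chosen with earlier results of these data known. Named genes were the 15 ranked highest, up to 4 per fixed list by mean in males, the 5 highest and 5 lowest CVs, the 3 smallest p-values in each direction of each test where none was called, and the 3 on each side of the end of the list. The genes dcst1, spaca6, shoc1, FOXJ1, foxj1b, COL1A1, b2m, ccdc166, hsf5, PKLR and BIN2 were named after their values were seen. Symbols come from the reference table of gene names. RefSeq names matched 151 members (75.5%), under 80%, so a check of position or length was void. Levels were compared between fish and not between genes, as transcript lengths were not used here. The null control fish and the juveniles were not analysed here. A member that the naming rule selects is not reported here.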

Additional observations from a re-analysis of the deposited data

Results flagged for a closer look

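Of 65 named members, 5 had a single EM-male apart from the other 5, by Dixon's ratio of gap to range. Chance alone gives about 1 such case in 20 groups, but the named members cannot be set against that share. Of those flagged, ros1 and myhb were named for a high CV. ENSDARG00000010729, ros1 and SPARC were named for their trend with concentration. In EM200 male 2, ros1 had 16671 normalized counts, against 520 to 1595 in the other EM-males, and ENSDARG00000010729 had 3225, against 242 to 478. The same fish had 4090 of myhb, against 413 to 943, and 2083 of SPARC, against 421 to 774. STAR was low in EM100 male 1, at 788, against 1550 to 1972. The reason was not tested.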

How the results depend on the processing

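edgeR called no member in any comparison under any setting tried. DESeq2 called 2 members higher in EM-males, SMYD1 and si:ch211-198k9.6, among 67 genes higher and 40 lower, and it called 272 higher and 118 lower in EM-females and 50 and 16 in the trend. The 1 gene lower in EM-males in edgeR was 0 with the replicate block, with all 16 libraries, at each concentration alone and without the 3 males with the most pancreatic reads, and from 0 to 7 with 1 fish left out, the 7 without control male 2. In EM-females the counts of genes higher and lower ran from 0 to 10 with 1 fish left out, 10 of each without control female 1. The count lower was 1 with DESeq2 size factors, 4 with no filter, 1 with the replicate block, and 1 and 3 for the EM100 and EM200 females alone. The count higher was 1 with all 16 libraries and for EM50 females alone. The median log2 change of the members in EM-males ran from 0.094 to 1.02 with 1 fish left out. Single members reversed without 1 fish: si:ch211-184m19.3 ranged from -1.99 to 0.038, the latter without control male 1, RSPH4A in females from -4.14 to 0.33, without control female 1, and the trend of ros1 from -0.13, without EM200 male 2, to 1.83. Of 200 members, 103 remained with a minimum of 500, 152 with 100, 185 with medians, 190 with TMM and 181 to 198 with 1 fish left out. The numbers in the labels are not said to pair fish, and the main tests used no pairing. Deviations of replicate 1 correlated from -0.29 to -0.20 between control and EM-males and from 0.14 to 0.30 among EM-males. Among females they correlated from -0.02 to 0.01. Such correlations cannot decide whether fish were paired. With 2 control fish per sex, depth and number of fish limit what a test of the members can show.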
